A study of Mus musculus with 144 samples.

Results

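Blood gene expression 12 months after a single low dose of multi-walled carbon nanotubes (MWCNT) was compared with that after the vehicle alone. Members were the arrays labelled with 1 µg MWCNT at 12 months and those labelled with DM at 12 months, and these 18 arrays of 17 mice made up 12.5% of the arrays and 12.2% of the mice of the series, which has 18 groups. The 1 µg group had 9 mice on 9 arrays, and the DM group had 8 mice on 9 arrays. All were male C57BL/J6 mice, 7 weeks old when they were obtained, housed singly and given 1 pharyngeal aspiration, in which a drop placed at the back of the throat is breathed into the lung. DM, the dispersion medium, is a buffered saline with glucose, mouse serum albumin and a phospholipid. Both groups received it, and only the 1 µg group received nanotubes in it. The rest of the series held 10, 40 and 80 µg of MWCNT and 120 µg of crocidolite asbestos, with blood taken 1, 6 or 12 months after dosing. No genes were selected to define the comparison.

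MWCNT are stiff, fibre-shaped particles that persist in the lung, where macrophages take them up and where larger burdens bring inflammation and scarring. Blood is sampled at a distance from that site. An extract of whole blood holds RNA from maturing red cells, from platelets and from every kind of white cell, and a gene can therefore differ through its expression in a cell or through the make-up of the blood.

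Each of the 23521 probe sets with 1 gene symbol was tested, standing for 22180 genes, and all levels below are deposited log2 values. A probe set was called bright when its mean over all mice lay above 1.51, the level under which 90% of the olfactory receptor probe sets lay, whose genes blood should not express. There were 12274 bright and 11247 dim probe sets. Defining genes of blood cells were mostly bright, including 17 of 17 measured B cell, 16 of 16 T cell, 15 of 15 erythroid and 13 of 13 platelet genes. Bright were also 18 of 19 neutrophil, 16 of 18 monocyte and 14 of 15 natural killer and cytotoxic genes. The shares were lower for eosinophil and basophil genes, at 11 of 14, and antibody-secreting cell genes, at 6 of 10. Only 3 of 14 lung epithelium genes were bright, and the surfactant genes Sftpb and Sftpc averaged 1.10 and 1.13 over all mice. The array of 1 µg replicate 1 stood apart, with a median correlation of 0.776 with the other arrays against 0.879 to 0.917 for the other 8 mice of its group and 0.883 to 0.918 for the DM mice. The array spread, which is the interquartile range of the deviations of an array from the probe set medians, averaged 0.651 ± 0.134 (SD, n = 9) at 1 µg and 0.573 ± 0.0306 (SD, n = 8) in DM mice (exact two-sided permutation p = 0.133, adjusted p = 0.265). The labels name no plate. By array number, 4 of the 1 µg arrays and 7 of the DM arrays fell in 1 to 96, and 5 and 2 fell at 97 and above. DM replicate 5 had 2 arrays, which correlated at 0.913, inside the 0.871 to 0.937 found between other DM arrays.

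No gene passed the test after 1 µg. At an adjusted p under 0.10, 0 of 23521 probe sets passed in the limma test, or 0% of those tested, and the methods' analysis of variance also gave 0. At an unadjusted p under 0.05, 906 probe sets (3.85%) passed, of which 377 (1.6%) had the higher mean at 1 µg and 529 (2.25%) the lower. The analysis of variance gave 791. Of the 906, 46 were higher and 87 lower at 1 µg by at least 1.5-fold, together 0.566% of the probe sets. This share was 0.974% without 1 µg replicate 5, 0.952% without 1 µg replicate 8 and 0.855% without DM replicate 8. The smallest adjusted p was 0.242, for Park7, and the other named genes had an adjusted p of 0.9999 or close to it.

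The data also bound the size of the differences. The 95% interval of a probe set reached a median of 0.39 on either side of its log2 difference. For 22721 probe sets (96.6%) the whole interval lay inside 2-fold, and for 14765 (62.8%) inside 1.5-fold. Bright probe sets were measured less tightly, with 49.9% of intervals inside 1.5-fold against 76.8% for dim ones. Inside 2-fold were 94.5% of bright and 98.9% of dim intervals. Differences past 2-fold were therefore outside the interval for most bright probe sets, while for those not inside 1.5-fold a difference of that size was not. For dim probe sets a narrow interval bounds only the array value, since the array does not separate a transcript from background there. The number of arrays limits the precision.

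**Figure D1:**
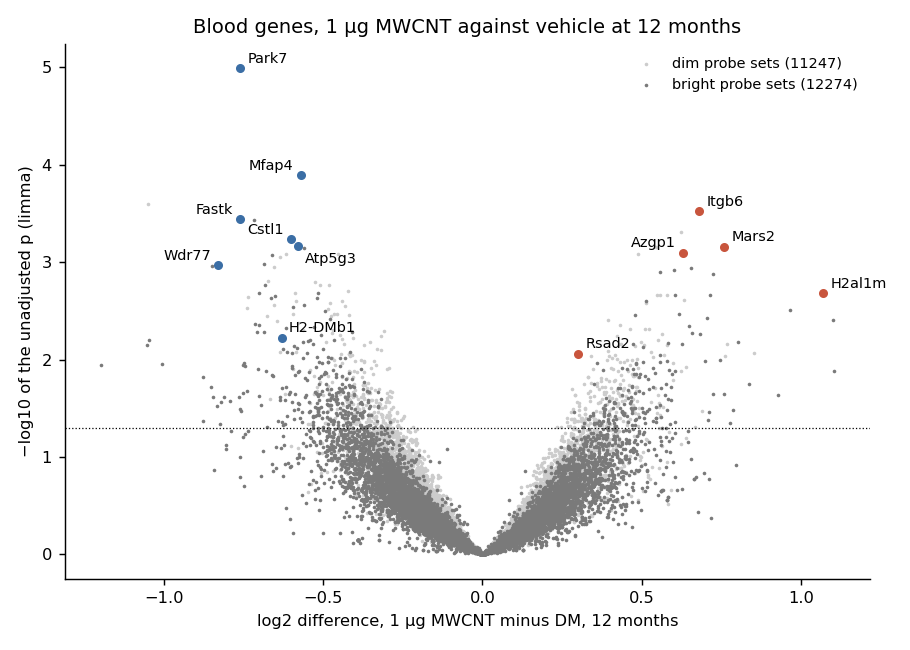
Log2 difference of each of 23521 probe sets between 9 mice given 1 µg MWCNT and 8 DM mice at 12 months (x axis) against the negative log10 of its unadjusted limma p (y axis), with bright probe sets dark grey, dim ones light grey, some named genes labelled and a dotted line at a p of 0.05. No point passed an adjusted p of 0.10, and Park7, at -0.76, lay highest.

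Park7 led the 12 bright genes of smallest p on the lower side. It encodes DJ-1, a redox-sensing protein that protects mitochondria and is mutated in inherited parkinsonism. Park7 lay at 1.87, 2.61 and 3.22 (lowest, median and highest of 9 mice) at 1 µg and at 2.88, 3.21 and 4.02 in the 8 DM mice. Of the 1 µg mice, 8 of 9 were below the lowest DM mouse. The log2 difference was -0.76 ± 0.17 (SE, limma adjusted p = 0.242). Replicate 8, at 3.22, was the only 1 µg mouse not below every DM mouse. Without it the difference was -0.85, with a limma adjusted p of 0.033. Leaving out that mouse was bound to widen the difference, and no other mouse left out gave a passing gene. Fastk, a kinase of a family that processes mitochondrial RNA, lay at 2.90, 3.19 and 4.01 against 3.81, 3.95 and 4.52, and 8 of 9 mice were again below every DM mouse. Its log2 difference was -0.76 ± 0.21. Atp5g3, the membrane-ring subunit of ATP synthase, lay at 2.48, 3.31 and 3.72 against 3.07, 3.85 and 4.28. The groups overlapped, and the log2 difference was -0.58 ± 0.17. Sdhaf1, an assembly factor of succinate dehydrogenase, differed by -0.68 ± 0.21, and Efhd1, a mitochondrial calcium-binding protein, by -0.69 ± 0.20. None of these passed after adjustment.

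The other genes on the lower side have varied functions. Wdr77, which binds the arginine methyltransferase PRMT5, lay at 3.38, 3.90 and 5.24 at 1 µg against 4.69, 4.95 and 5.27 in DM mice, a log2 difference of -0.83 ± 0.25. The DM mice were tightly grouped, while the 1 µg mice spread over a wider range that overlapped theirs. Txndc5, a disulfide isomerase of the endoplasmic reticulum, lay at 1.86, 2.66 and 3.85 against 3.04, 3.56 and 3.95, a log2 difference of -0.85 ± 0.25. In both genes 7 of 9 mice were below the lowest DM mouse. Mif4gd, which takes part in the translation of histone mRNA, differed by -0.70 ± 0.22, and Polr2j, a subunit of RNA polymerase II, by -0.66 ± 0.19. The remaining members were Cstl1, a cystatin-like gene, at -0.60 ± 0.17, Ccdc105 at -0.56 ± 0.16, and Pla2g4e, a phospholipase A2, at -0.52 ± 0.16. All were past an unadjusted p of 0.05 by the way they were chosen. Over all mice, the means of the 12 lower genes lay between 1.55 and 4.42, the lowest of them close to the brightness threshold.

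The 12 bright genes of smallest p on the higher side mostly lay close to the brightness threshold, with means over all mice between 1.61 and 3.90. Azgp1, a secreted glycoprotein that acts in lipid metabolism, lay at 1.45, 1.91 and 2.69 at 1 µg against 1.10, 1.41 and 1.55 in DM mice. Of the 9 mice, 7 were above every DM mouse, and the log2 difference was 0.63 ± 0.18. Mars2, the methionyl-tRNA synthetase of mitochondria, lay at 1.31, 1.89 and 3.12 against 0.84, 1.16 and 2.32, a log2 difference of 0.76 ± 0.22. Abl1, a tyrosine kinase, lay at 1.77, 2.11 and 2.98 against 0.96, 1.61 and 2.67, a log2 difference of 0.66 ± 0.20. Every 1 µg mouse was above the DM median for both of these genes, yet the groups overlapped. Elk1, a transcription factor of the serum response, lay at 3.23, 3.66 and 4.30 against 2.48, 2.99 and 3.63, and Cenpx, a centromere and DNA repair protein, at 3.35, 4.25 and 5.02 against 2.87, 3.56 and 4.32. Their log2 differences were 0.71 ± 0.23 and 0.62 ± 0.21. Nags, which makes the activator of the urea cycle, Tgds, Msc, a repressor of transcription, Fam3a and Glis2, a zinc finger protein, differed by 0.48 to 0.72. The largest values were for H2al1m, a histone variant of the germ line, at 1.07 ± 0.34, and Zfp974, a zinc finger gene, at 0.97 ± 0.32. No adjusted p on this side was under 0.9999.

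**Figure D2:**
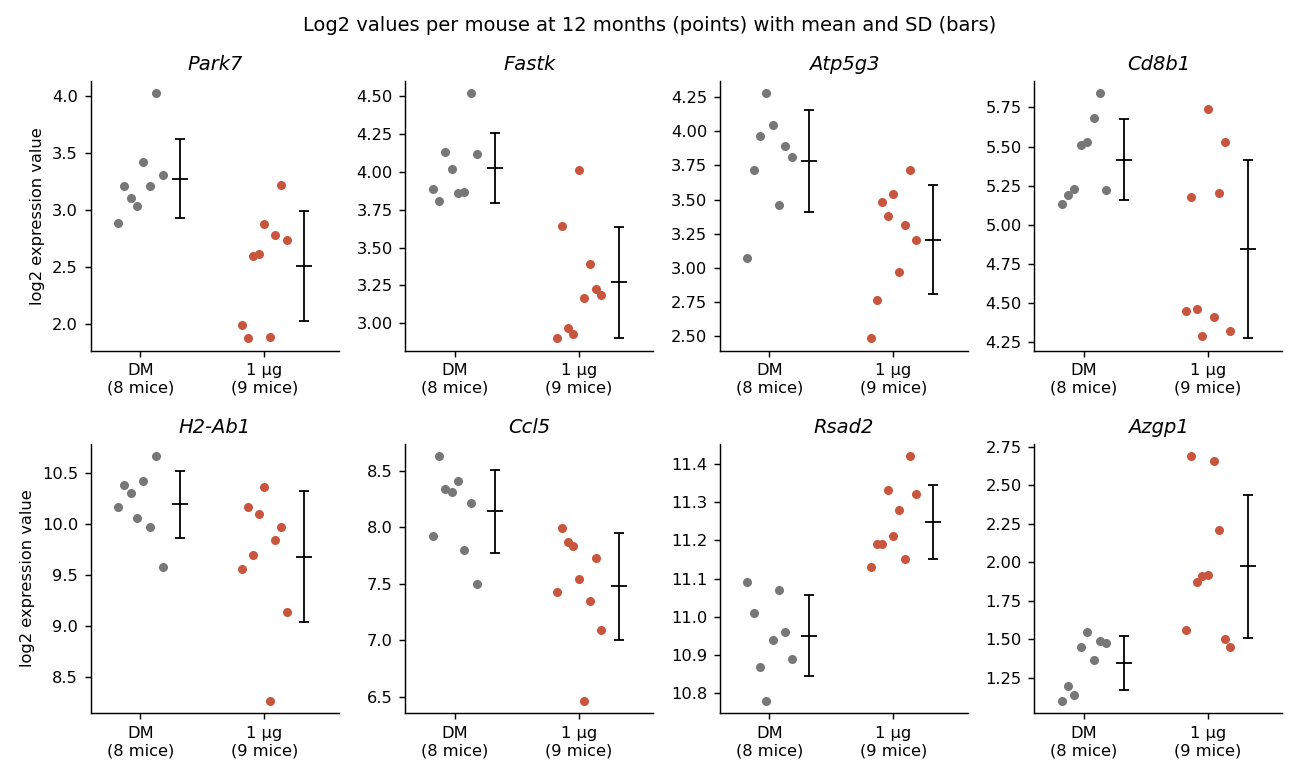
Deposited log2 level of 8 genes in each mouse at 12 months (y axis), with 9 mice given 1 µg MWCNT beside 8 DM mice (x axis) and black bars at the group means ± SD. The groups overlap in every panel but that of Rsad2, where the 1 µg mice lie between 11.13 and 11.42 and the DM mice between 10.78 and 11.09.

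Among dim probe sets the largest evidence was for Mfap4, an extracellular matrix glycoprotein. It lay at 0.62, 0.94 and 1.49 at 1 µg against 1.16, 1.56 and 1.82 in DM mice, and 7 of 9 mice were below every DM mouse. The log2 difference was -0.57 ± 0.14 (adjusted p = 0.9999). Higd1b, a relative of hypoxia-induced genes, differed by -0.45 ± 0.13, and Tlr3, the receptor for double-stranded RNA, by -0.62 ± 0.18. On the higher side were Itgb6, an epithelial integrin subunit, at 0.68 ± 0.18, Rundc1 at 0.62 ± 0.17 and Cdh10, a cadherin, at 0.55 ± 0.16. These levels were in the range of olfactory receptor probe sets, where the array does not separate a transcript from background.

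The groups did not overlap for 4 probe sets, or 0.017% of those tested. The highest in level was Rsad2, an interferon-induced antiviral enzyme known as viperin, at 11.13, 11.21 and 11.42 at 1 µg against 10.78, 10.95 and 11.09 in DM mice. All 9 mice were above all 8 DM mice by a narrow margin, with a log2 difference of 0.30 ± 0.11. DM mice lay between 10.93 and 11.74 at 1 month and between 10.93 and 11.56 at 6 months. The 1 µg mice of 12 months lay inside both of these ranges. Cstl1 lay at 1.11, 1.38 and 1.5 against 1.56, 1.85 and 2.94. The highest DM mouse, replicate 2, was apart from the next at 2.07. The other 2 were chosen after their values were seen. Spsb2, a gene of the SOCS box family, lay at 1.21, 1.58 and 1.71 against 1.71, 1.94 and 2.51, and Zfp668, a zinc finger gene, at 1.38, 1.54 and 1.80 against 0.58, 1.05 and 1.18. Every 1 µg value of Cstl1 and every DM value of Zfp668 lay under the brightness threshold of 1.51, where the array does not separate a transcript from background. None of the 4 passed after adjustment.

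The 24 bright genes were then read at the earlier months, in other mice with other DM controls. Of the 12 genes lower at 12 months, 9 had a lower mean at 1 µg at 1 month, 1 of them at an unadjusted p under 0.05, and 3 had a lower mean at 6 months. Of the 12 higher genes, 5 and 6 had a higher mean, 1 of them at an unadjusted p under 0.05. The log2 difference of Park7 was -0.03 at 1 month and 0.05 at 6 months, and that of Fastk was -0.38 and 0.35. The Park7 level in 1 µg mice was 2.75 ± 0.33 (SD, n = 8) at 1 month, 2.56 ± 0.38 (n = 8) at 6 months and 2.51 ± 0.48 (n = 9) at 12 months, while the DM mice were at 2.78 ± 0.21 (n = 7), 2.51 ± 0.32 (n = 8) and 3.27 ± 0.34 (n = 8). Among the 18 group means, that of DM at 12 months ranked first for 10 of the 12 lower genes and last for 8 of the 12 higher genes. The 1 µg group of 12 months had the highest mean for 5 of the higher genes and the lowest mean for 2 of the lower genes. These genes had been picked for the difference between those 2 groups.

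**Figure D3:**
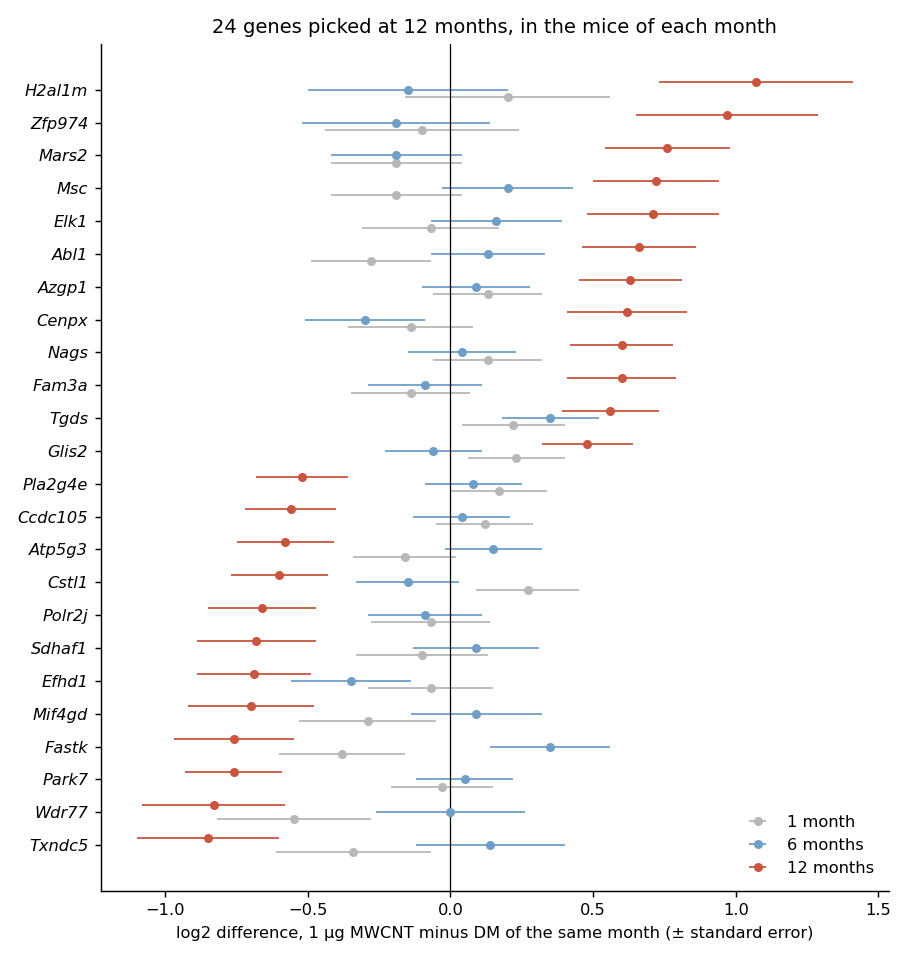
Log2 difference between 1 µg and DM mice (x axis, bars ± SE) for the 12 lower and 12 higher bright genes of smallest p at 12 months, each at 1, 6 and 12 months. The 12-month values lie on the side they were picked for, and the values of 1 and 6 months lie on both sides of 0, between -0.55 and 0.35.

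Antigen presentation by MHC class II had the lowest median of the immune gene lists. Class II molecules show peptides from engulfed material to helper T cells, and in blood B cells carry most of them. All 9 measured genes had a lower mean at 1 µg, with a median log2 difference of -0.43 against -0.01 over all probe sets. Of the 9, 4 had an unadjusted p under 0.05 on the lower side, where 2.25% of all probe sets did, and 2 had one without 1 µg replicate 1. None passed after adjustment. In bulk blood, fewer cells of a type and less RNA per cell cannot be told apart.

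The chains of the class II molecule itself are encoded by H2-Ab1, H2-Aa and H2-Eb1. H2-Ab1 lay at 8.26, 9.84 and 10.37 at 1 µg against 9.58, 10.24 and 10.67 in DM mice, a log2 difference of -0.52 ± 0.24. H2-Aa was at 8.30 ± 0.73 (SD, n = 9) against 8.70 ± 0.27 (n = 8), and H2-Eb1 at 8.38 ± 0.54 against 8.81 ± 0.36. The DM mice were closer together than the 1 µg mice for all 3 chains. H2-DMb1, part of the DM molecule that loads peptide, lay at 2.65, 3.54 and 4.42 against 3.42, 3.97 and 4.77, a log2 difference of -0.63 ± 0.22. H2-Oa, part of the DO molecule that restrains DM, lay at 3.86, 5.20 and 6.25 against 5.25, 5.60 and 6.43, a log2 difference of -0.57 ± 0.28. Ciita, the transactivator of the class II genes, was at 4.98 ± 0.82 against 5.12 ± 0.69, and its sign turned in 3 alternatives.

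Averaged over the 9 class II genes, the level was 6.48 ± 0.63 (SD, n = 9) at 1 µg and 6.89 ± 0.34 (SD, n = 8) in DM mice, and the groups overlapped. The DM mean of 12 months was the highest of the 18 groups. DM mice had been at 6.59 ± 0.24 (n = 7) at 1 month and 6.07 ± 0.50 (n = 8) at 6 months, and 1 µg mice at 6.47 ± 0.25 (n = 8) and 6.34 ± 0.45 (n = 8). The median class II difference between 1 µg and DM was -0.12 at 1 month and 0.28 at 6 months. Over the alternatives at 12 months it stayed between -0.55 and -0.28.

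**Figure D4:**
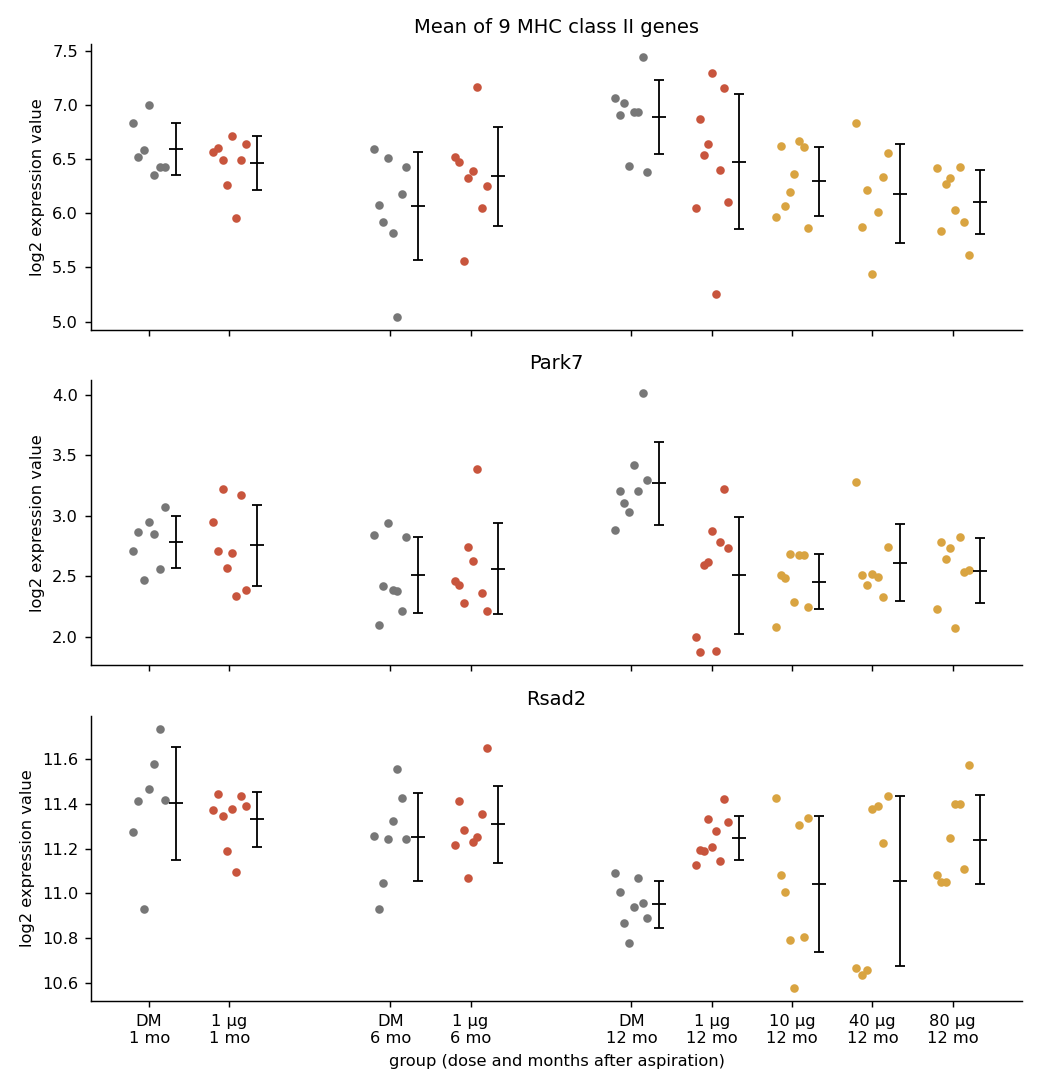
Deposited log2 level per mouse (y axis) of the mean of 9 MHC class II genes, of Park7 and of Rsad2, in DM and 1 µg groups at 1, 6 and 12 months and in the 10, 40 and 80 µg groups at 12 months (x axis), with black bars at the means ± SD. The DM mice of 12 months average 6.89 for class II and 3.27 for Park7, above each other group shown. Their Rsad2 mean is the lowest of the groups shown.

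Lymphocyte genes had lower means at 1 µg with wide spreads. Of 17 B cell genes, 16 were lower, with a median log2 difference of -0.33. It was -0.27 without 1 µg replicate 1 and -0.18 with array spread as a covariate. Within arrays 1 to 96 it was -0.46, and within arrays 97 and up -0.07. On the lower side, 1 B cell gene had an unadjusted p under 0.05, where 2.25% of all probe sets did. This was Fcrla, an intracellular Fc receptor-like protein of B cells, at 5.82 ± 0.78 (SD, n = 9) against 6.40 ± 0.37 (n = 8). Cd79a and Cd79b, the signalling chains of the B cell receptor, were at 8.86 ± 0.65 against 9.18 ± 0.19 and at 8.43 ± 0.49 against 8.84 ± 0.35. Of 16 T cell genes 12 were lower, with a median of -0.10, and 2 had an unadjusted p under 0.05. The median was -0.02 without 1 µg replicate 1 and 0.01 with array spread as a covariate. Within arrays 1 to 96 it was -0.39, and within arrays 97 and up 0.06. Cd8b1, a chain of the CD8 co-receptor, lay at 4.29, 4.46 and 5.74 at 1 µg against 5.13, 5.37 and 5.84 in DM mice, a log2 difference of -0.58 ± 0.23. Of the 1 µg mice, 5 lay between 4.29 and 4.46, below every DM mouse, and 4 between 5.18 and 5.74. Cd3g, a CD3 subunit, lay at 5.03, 6.18 and 6.75 against 6.33, 6.63 and 6.82, a log2 difference of -0.54 ± 0.24.

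Of 15 natural killer and cytotoxic genes, 14 had a lower mean at 1 µg, with a median of -0.21. On the lower side, 2 had an unadjusted p under 0.05, where 2.25% of all probe sets did. Ccl5, a chemokine of cytotoxic cells, lay at 6.46, 7.54 and 7.99 against 7.50, 8.26 and 8.63, a log2 difference of -0.66 ± 0.27. Gzma, the protease granzyme A, lay at 3.22, 5.19 and 5.89 against 4.99, 5.52 and 5.94, a log2 difference of -0.64 ± 0.31. For both genes 4 of 9 mice were below every DM mouse. Of 12 MHC class I genes 11 were lower, with a median of -0.29, and of 8 Gimap genes, GTPases of lymphocytes, 7 were lower, with a median of -0.26. Within arrays 1 to 96 the median was -0.38 for MHC class I and -0.45 for Gimap genes. Within arrays 97 and up these medians were -0.08 and 0.08, and with array spread as a covariate -0.14 and -0.11.

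Of 19 neutrophil genes 17 were lower, with a median of -0.20. It was -0.24 within arrays 1 to 96, -0.001 within arrays 97 and up and -0.09 with array spread as a covariate. Only Mpo, the myeloperoxidase of neutrophil granules, had an unadjusted p under 0.05, and its difference of -0.63 ± 0.31 rested on DM replicate 4, at 4.19 while the DM median was 1.62. Without that mouse it was -0.31. The same mouse was at 4.55 for Elane, neutrophil elastase. The monocyte median was -0.10 over 18 genes, with 10 lower, and was -0.003 without 1 µg replicate 1 and 0.115 with array spread as a covariate. The platelet median was -0.16 over 13 genes, and 0.01 without 1 µg replicate 1, whose platelet level of 7.61 was the lowest of its group. Within arrays 1 to 96 the platelet median was -0.45, and within arrays 97 and up 0.25. The erythroid median was 0.08 over 15 genes, with 10 higher, and was -0.10 within arrays 1 to 96 and 0.34 within arrays 97 and up.

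Interferon-induced genes were the list with the highest median. Of 22 genes 14 had a higher mean at 1 µg, with a median of 0.14, and 2 had an unadjusted p under 0.05 on the higher side, where 1.6% of all probe sets did. They were Rsad2 and Oasl1, an antiviral protein of the OAS family, which lay at 1.38, 2.00 and 3.14 against 1.27, 1.59 and 2.18. The median depended on the arrays, at -0.11 within arrays 1 to 96 and 0.49 within arrays 97 and up. Against the same DM mice, the log2 difference of Rsad2 was 0.09 at 10 µg, 0.10 at 40 µg and 0.29 at 80 µg.

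**Figure D5:**
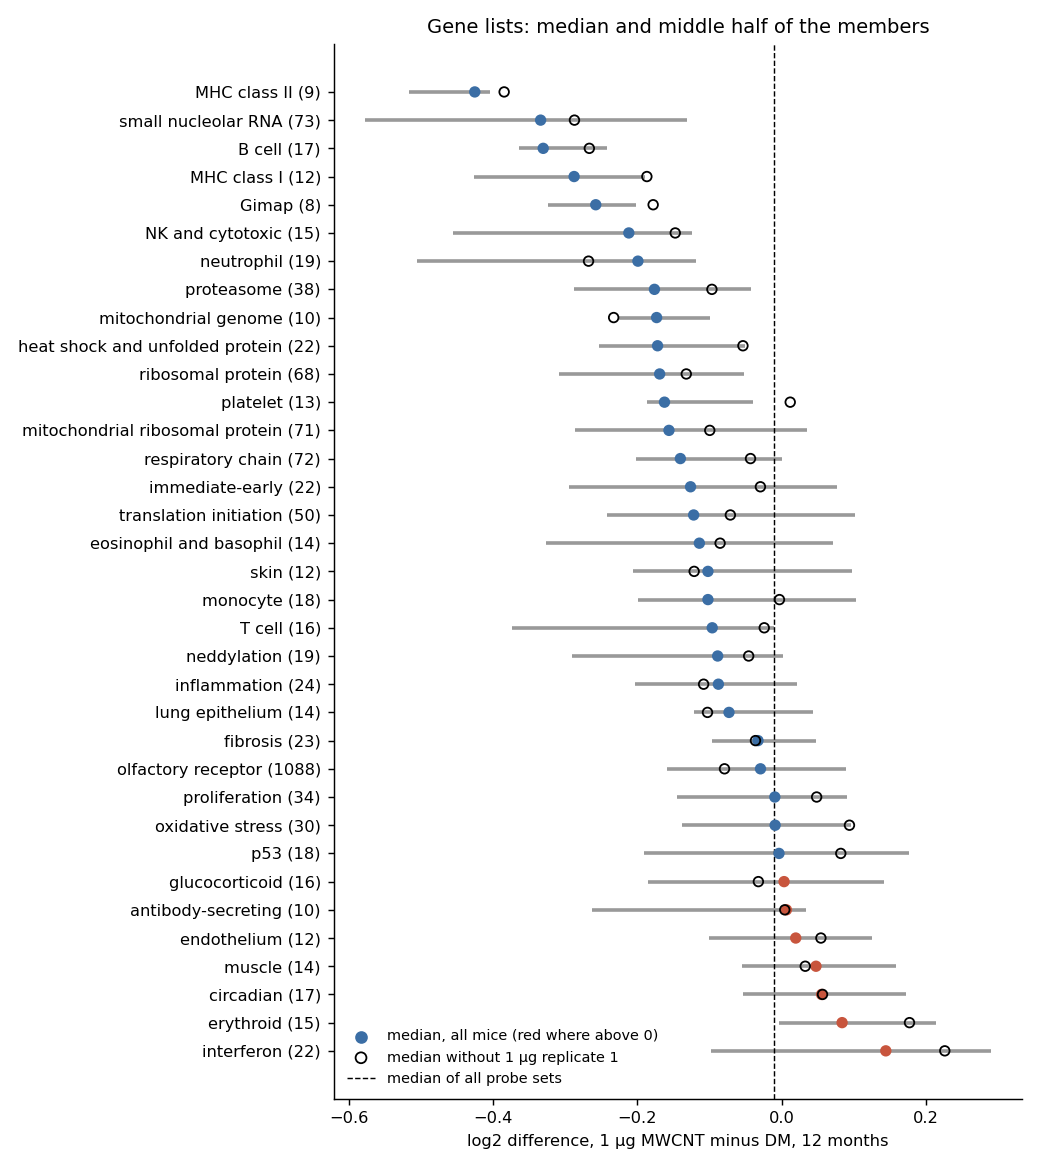
Median log2 difference between 1 µg and DM mice at 12 months (x axis) for 35 gene lists (y axis, number of genes in brackets), with filled points for all mice, grey lines from the 25th to the 75th percentile of the members, open points without 1 µg replicate 1 and a dashed line at the median of all probe sets, -0.01. MHC class II lies lowest at -0.43 and interferon highest at 0.14.

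Genes of RNA and protein synthesis had median differences below 0 as well. For small nucleolar RNAs, ribosomal proteins and proteasome genes the DM mean of 12 months was the highest of the 18 groups. The 1 µg mean of 12 months ranked 3, 3 and 5 of 18 for these lists. Of 73 small nucleolar RNAs, which guide the modification of ribosomal RNA, 62 were lower, with a median of -0.33, and 12 had an unadjusted p under 0.05 on the lower side, where 2.25% of all probe sets did. Without 1 µg replicate 1 it was 9. Snord47 and Snord15a each differed by -1.05. Of 68 ribosomal protein genes 54 were lower, with a median of -0.17, and 6 of those lower and 2 of those higher had an unadjusted p under 0.05. Rpl7 was at 7.33 ± 0.41 (SD, n = 9) against 7.84 ± 0.37 (n = 8), while Rplp2, at a dim probe set, was at 1.43 ± 0.35 against 0.89 ± 0.43. Ribosomal proteins share sequence with many pseudogenes, so their probe sets can read more than 1 copy. Of 38 proteasome genes 31 were lower, with a median of -0.18. It was -0.36 within arrays 1 to 96 and 0.13 within arrays 97 and up. The mean array spread was 0.0778 larger at 1 µg, or 0.0443 larger without 1 µg replicate 1. With it as a covariate, the small nucleolar RNA median was -0.21 and the ribosomal protein median -0.10.

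Nuclear genes of the respiratory chain had 54 of 72 means lower at 1 µg, with a median of -0.14, and 10 lower with an unadjusted p under 0.05, where 2.25% of all probe sets were. The DM mean of 12 months was the highest of the 18 groups for this list, and the 1 µg mean of 12 months ranked 2. Without 1 µg replicate 1 the median was -0.04, with 46 lower and 5 at an unadjusted p under 0.05. It was -0.25 within arrays 1 to 96 and 0.01 within arrays 97 and up. The 10 included Ndufc2, of complex I, at 3.85 ± 0.76 (SD, n = 9) against 4.55 ± 0.62 (n = 8), Sdhb, the iron-sulfur subunit of complex II, at 3.95 ± 0.52 against 4.54 ± 0.49, and Cox4i1, of complex IV, with a difference of -0.45. Every 1 µg mouse was below the DM median for Sdhb. With the array spread as a covariate the list's median was 0.01. Genes of the mitochondrial ribosome had a median of -0.16 over 71 genes, and Mrps18b was at 3.36 ± 0.54 against 4.07 ± 0.48. This median was -0.10 without 1 µg replicate 1 and -0.08 with array spread as a covariate. Within arrays 1 to 96 it was -0.30, and within arrays 97 and up 0.04. For the mitochondrial ribosome the DM mean of 12 months ranked 1 and the 1 µg mean 6 of 18. For the mitochondrial genome these ranks were 7 and 16. The 10 genes of the mitochondrial genome were all lower with a median of -0.17, and the median was 0.08 within arrays 1 to 96 and 0.06 within arrays 97 and up. Mitochondrial quality control genes, Park7 among them, had a median of -0.05 over 23 genes.

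Over all mice, the medians of the fibrosis, oxidative stress, p53 target and proliferation lists lay near 0. All but that of fibrosis changed sign between the parts of the arrays. Within arrays 1 to 96 the median was -0.13 for oxidative stress, -0.11 for p53 targets and -0.24 for proliferation. Within arrays 97 and up these medians were 0.16, 0.21 and 0.25. Fibrosis genes had a median of -0.03 over 23 genes, and only Tgfb3, a transforming growth factor at dim signal, had an unadjusted p under 0.05, at -0.36 ± 0.16. Tgfb1 differed by 0.02 and Fn1, fibronectin, by -0.17. The medians were -0.01 for oxidative stress (30 genes), 0.00 for p53 targets (18 genes), -0.01 for proliferation (34 genes) and -0.09 for inflammation (24 genes), where Nfkbia, the inhibitor of NF-kB, was at 5.47 ± 0.55 against 5.90 ± 0.34. Heat shock and unfolded protein genes were lower in 20 of 22, with a median of -0.17. It was -0.05 without 1 µg replicate 1, -0.30 within arrays 1 to 96 and 0.20 within arrays 97 and up. The lists of lung epithelium, endothelium, skin and muscle had medians of -0.07, 0.02, -0.10 and 0.05, and of their 52 genes 14 were bright. The study had named 15 genes in blood from these same samples, so they are not independent evidence. Of the 14 measured, 11 had a higher mean at 1 µg, 0 had an unadjusted p under 0.05, and the median was 0.07. The study listed most of the 15 at 1 or 6 months, more as downregulated than as upregulated. Only SYTL3 was listed at 12 months, as downregulated and with no dose given beside it. That listing need not concern 1 µg. Here Sytl3 had a higher mean at 1 µg, with mice between 2.08 and 2.88 against 1.70 and 2.86 in DM mice.

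The lower means were not spread evenly over signal. Over all probe sets 12329 of 23521 (52.4%) were lower at 1 µg. Among the 2746 with a mean signal of 4 to 6, 61.9% were lower, with a median of -0.06, and at an unadjusted p under 0.05 2.44% were lower and 0.0728% higher. Among the 9605 with a signal of 1 to 2, 47.4% were lower, and at an unadjusted p under 0.05 1.83% were lower and 2.25% higher.

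The higher doses were set against 1 µg at 12 months without use of the DM mice. Few genes passed. Against 80 µg, 1 probe set passed (0.00425% of those tested), 4933404K08Rik, whose level was 1.27 ± 0.41 (SD, n = 8) at 80 µg and 0.52 ± 0.23 (n = 9) at 1 µg (limma adjusted p = 0.0194). Against 10 µg, 2 passed (0.0085%). Zfp534, a zinc finger gene, was at 2.15 ± 0.62 at 10 µg and 1.13 ± 0.38 at 1 µg (limma adjusted p = 0.0265), and Ctage5, which exports large cargo from the endoplasmic reticulum, at 4.84 ± 0.32 and 5.66 ± 0.45 (limma adjusted p = 0.0852). Against 40 µg, 1 passed (0.00425%). Ctnnd1, a catenin that binds cadherins, was at 2.03 ± 0.33 at 40 µg and 1.21 ± 0.16 at 1 µg (limma adjusted p = 0.0775). None of these passed when only the mice of 12 months were fitted, and 3 of the 4 were under the brightness threshold in the 1 µg mice.

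The B cell, T cell and Gimap lists had the lowest medians of the lists read at 80 against 1 µg, while that of natural killer and cytotoxic genes was -0.19. At 80 µg all 17 B cell genes had a lower mean than at 1 µg, with a median of -0.46, and 8 had an unadjusted p under 0.05, where 6.65% of all probe sets did on that side. For T cell genes the counts were 16 of 16 lower and 5 with an unadjusted p under 0.05, with a median of -0.45, and for Gimap genes 8 of 8 and 4, with a median of -0.47. None passed after adjustment. Leaving out arrays of low correlation, among them 1 µg replicate 1, raised the number of all probe sets that passed between 80 and 1 µg from 1 to 248.

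The same 8 DM mice served every dose, so the values are given side by side. Against them the class II median was -0.43 at 1 µg, -0.58 at 10 µg, -0.73 at 40 µg and -0.78 at 80 µg, and the B cell median was -0.33, -0.55, -0.69 and -0.77. The log2 difference of Park7 was -0.76, -0.81, -0.66 and -0.72, and that of Fastk -0.76, -0.80, -0.66 and -0.96. The Park7 mean was 3.27 in these DM mice and 2.51, 2.46, 2.61 and 2.55 at 1, 10, 40 and 80 µg. DM mice of the earlier months averaged 2.78 and 2.51. Park7, Fastk, Atp5g3 and Elk1 had been picked for the 1 µg difference from these same DM mice. A dose pattern can therefore not be read from their differences. The class II and B cell medians were nearer 0 at 1 µg than at the higher doses, and a trend with dose was not tested. The difference of Atp5g3 was -0.58, -0.62, -0.47 and -0.67, and that of Elk1 0.71, -0.05, 0.31 and -0.04.

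The effect of 1 µg was tested for a difference between months. Against 1 month, 2 probe sets passed (0.0085%). Mfap4, at dim signal, had an effect of 0.47 at 1 month and -0.57 at 12 months, a difference of effects of -1.04 ± 0.21 (limma adjusted p = 0.0524). Yipf2, a Golgi membrane protein, had an effect of -1.02 at 1 month and 0.26 at 12 months, a difference of 1.29 ± 0.28 (limma adjusted p = 0.0838). From 1 to 12 months the log2 difference was -0.95 for Yipf2 and 0.52 for Mfap4 in DM mice, against 0.33 and -0.52 in 1 µg mice. Against 6 months 0 passed in the limma test, with 998 at an unadjusted p under 0.05.

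Within the 1 µg mice few genes passed between months. From 1 to 12 months 6 probe sets passed (0.0255%). Tspan17, a tetraspanin, rose by 1.38 ± 0.24 and Tm4sf1, a membrane protein of the transmembrane 4 family, by 1.06 ± 0.20. Ncr1, the natural killer receptor NKp46, changed by -1.77 ± 0.36, Gzma by -1.48 ± 0.31, Syt14, a synaptotagmin, by -0.98 ± 0.20 and Tex22, at dim signal, by -0.65 ± 0.14. Their limma adjusted p ranged from 0.00121 to 0.0467. DM mice over the same months differed by 1.36, 1.46, -2.39, -1.25, -1.48 and 0.05 for these genes, in the same order. In DM mice 1.51% of probe sets passed from 1 to 12 months and 0.068% from 6 to 12 months, while in 1 µg mice 0 passed from 6 to 12 months in the limma test, with 823 at an unadjusted p under 0.05. The difference between these counts was not tested other than by the effects by month above.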

How the data were processed

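Whole-blood RNA of 139 mice, on 144 arrays, was hybridised by the authors to Affymetrix Mouse Gene ST 2.1 plates. The table deposited by the authors holds log2 values from the robust multi-array average, for which the submitters' processing notes name oligo and limma without versions. Groups came from the labels, and arrays of a group with the same mouse number were averaged. Where nothing says that mice were processed apart, p-values measure the spread between these samples. Of 41345 probe sets, 23521 had 1 gene symbol in the platform table, 1820 several and 16004 none. A gene table of GRCm38.p6 held 23328 of the gene IDs and gave current symbols.

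All 18 group means were fitted with limma 3.58.1 in R 4.3.3 (121 residual degrees of freedom), and comparisons were drawn as contrasts, adjusted by Benjamini-Hochberg over 23521 probe sets and called at 0.10. Errors are SE for log2 differences and SD for group means. The fit was tested on simulated data. Members and gene lists were chosen with earlier results of these data known. Named were the 12 higher and 12 lower bright probe sets of smallest p, 3 and 3 dim ones, called genes of other contrasts, up to 3 members of smallest p per list, and the 15 genes the study named, passing over predicted genes, microRNA, small nucleolar RNA and olfactory receptor genes. The text prints part of these, and list members named outside the rule were chosen after their values were seen. Lists were read with 1 probe set per gene, the brightest, and given no set test. Alternatives covered the mice fitted, normalization, filters, array number, array spread, array weights, the prior, the methods' analysis of variance and leaving out each mouse.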

Additional observations from a re-analysis of the deposited data

Results flagged for a closer look

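A mouse far from the others of its group was looked for in 234 sets of values, and 14 were found, where chance gives about 1 in 20. Of the 14, 4 were 1 µg replicate 1, the lowest of its group. Its array had a median correlation of 0.776 (next 0.879), and its mean level was 7.61 over platelet genes (next 8.83), 4.95 over oxidative stress genes (next 5.35) and 4.03 over mitochondrial quality control genes (next 4.50). In the same group replicate 5 was highest for Klrg1, a receptor of natural killer cells, at 3.10 (next 2.51).

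Among DM mice, replicate 7 was highest for Park7 at 4.02 (next 3.42) and for Fastk at 4.52 (next 4.13), and replicate 2 for Cstl1 at 2.94 (next 2.07). Replicate 8 was lowest for Nfkbia at 5.17 (next 5.77), Mrps18b at 3.07 (next 3.94) and Nkg7 at 5.02 (next 5.76). Replicate 6 was lowest for Itgb6 at 0.12 (next 0.48), replicate 2 over eosinophil and basophil genes at 1.91 (next 2.38) and replicate 1 over lung epithelium genes at 0.99 (next 1.16).

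The effect of 1 µg differed between 12 and 1 month by -1.04 for Mfap4 (limma adjusted p = 0.0524) and by 1.29 for Yipf2 (limma adjusted p = 0.0838). Mfap4 was at dim signal.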

How the results depend on the processing

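No paired analysis was possible because the replicate numbers of the groups only name mice and tie no 1 µg mouse to a DM mouse. The count of 0 genes passing against DM was 8 within arrays 97 and up (2 higher, Abl1 at 1.36 among them, and 6 lower) and 0 to 1 when each mouse was left out, the 1 being Park7 at -0.85 without 1 µg replicate 8. It was 0 under the other alternatives. The 906 probe sets at an unadjusted p under 0.05 became 1691 over all probe sets of the table, 1878 within arrays 1 to 96, 1658 within arrays 97 and up and 426 without dim probe sets, and 808 to 1171 when each mouse was left out. The share that also differed by 1.5-fold, 0.566%, became 1.31%, 4.37% and 6.45% in the first 3 of these, 0.872% with array spread as a covariate, and 0.523% to 0.974% when each mouse was left out, the highest without 1 µg replicate 5. Fewer mice are compared within each part of the arrays, and of the DM mice only replicate 8 and 1 array of replicate 5 were numbered 97 and up.

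For 10 against 1 µg, 2 became 21 with array spread as a covariate, 11 without arrays of low correlation and 0 when only mice of 12 months were fitted. For 40 against 1 µg, 1 became 0 in the last of these. For 80 against 1 µg, 1 became 2, 248 and 0 in the same order. The effects that differed between 12 and 1 month numbered 1 without arrays of low correlation, where Yipf2, at 1.33, no longer passed. The 6 genes of 1 µg mice between 12 and 1 month became 14 with array spread as a covariate, where Gzma, at -1.23, no longer passed. The causes were not tested.

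Within arrays 97 and up the sign turned for Rhd (0.05), Elane (0.45), Psmc4 (0.03), H2-Ob (0.24) and Ciita (0.09). Ciita was also at 0.03 with array spread as a covariate and between -0.32 and 0.08 when each mouse was left out, the highest without 1 µg replicate 6. Of 2487 values of named genes against DM under alternatives, 2478 kept their direction and side of the threshold.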
